A study of Arabidopsis thaliana with 3 samples.

Results

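The 75 genes described here had their lowest signal of 3 arrays in seedlings of the plastid import mutant ppi1. They were chosen by their measured signals: the ppi1 signal of each lay at least 1.5-fold below both the line 75-IV and the wild-type signal, and all 3 signals lay above a floor of 14.9. Of 3602 named genes on the array, 1796 passed that floor on all 3 arrays, and 98 of these met the fold rule, which is 5.46% (against 7.68% at least 1.5-fold above both other arrays). The rule then left out 23 genes, namely 8 class III peroxidases, 4 ribosomal protein genes, 1 expansin gene and 10 genes it lists by name, so that 75 remained. Since the ppi1 values made the choice, the ppi1 differences below are a description and support nothing by themselves.

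RNA came from whole seedlings of Arabidopsis thaliana, ecotype Col-0, at growth stage 1.02, grown on MS medium with 0.5% sucrose in days of 16 h light and 8 h dark. The first mutant, ppi1, carries a T-DNA in the Toc33 gene, the second, line 75-IV, is labelled with a T-DNA in Toc75 (the label prints At4g09070), and wild type has no modification. Each group had 1 array, with no replicate, so no test was possible, and each difference is one between single arrays whose number limits the precision. The number of pooled plants is blank in the submitters' design field, and the probe annotation used here names no probe set for the mutated genes or for the 7 root markers that were looked up. Of 5 shoot markers looked up, only LHB1B2, a light-harvesting protein, had a named probe set. Its signals were 2330.6 in ppi1, 2326.7 in line 75-IV and 2536.8 in wild type. This 1 gene cannot describe tissue composition.

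Toc33 is a receptor at the outer envelope of the chloroplast that recognises proteins made in the cytosol. A protein of the Toc75 family forms the channel through which such proteins pass. Whether the gene with the T-DNA in line 75-IV encodes that channel was not examined here. Seedlings without Toc33 are known to be pale, with photosynthesis genes at reduced levels. The genes left out by name include PSAN, LHCB4.3 and PORB, of photosynthesis and chlorophyll synthesis, so the set says nothing about how common such genes were among those lowest in ppi1. The genes below encode proteins of the cell wall and cell surface, enzymes of sugar and energy metabolism, transporters, plastid proteins, parts of protein turnover, signalling proteins, and RNAs or proteins of gene expression. Of the 75, 57 could be placed in 9 groups by function. Roles of genes known only by a locus number are background knowledge of Arabidopsis gene families and are not given in the deposited data. In whole seedlings, fewer cells of a type and less RNA per cell cannot be told apart.

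The arrays also differed in measures that do not belong to single plant genes. Labelled bacterial and phage control transcripts (BioB, BioC, BioDn and CreX), which are normally added with the hybridisation mix and so bear on hybridisation and scaling, not on RNA preparation, were lower on the ppi1 array in 9 of 9 probe sets. Their log2 ratios ran from -0.76 to -0.12 against wild type and from -0.93 to -0.44 against line 75-IV, and 4 of the 9 met the same 1.5-fold rule. The 6 dimmer controls, with wild-type signals of 81.0 to 209.5, had log2 ratios of -0.93 to -0.46 against line 75-IV and of -0.76 to -0.46 against wild type. The 25 members within that signal range had medians of -0.90 against line 75-IV, inside the range of those controls, and of -0.88 against wild type, below it. The rule itself keeps every member at least 1.5-fold lower in both. All 418 measured genes within that signal range had medians of 0.04 and 0.06. Of the 75 members, 34 lay below the lowest control in both ratios and 41 did not. With the arrays scaled to these controls (spike-in scaling), 12 of the 75 still met the rule and 70 still had their lowest signal in ppi1. The signal at the 3′ end of the GAPDH control over that at its 5′ end was 1.61 in ppi1, 2.42 in line 75-IV and 18.7 in wild type, while the same ratio for ubiquitin differed less, at 2.75, 3.51 and 4.16 in that order. The scanner output lists 504, 20 and 11 outlier cells in the same order. The part of these array differences in the members' values was not tested.

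Members spanned ppi1 signals from 16.0 to 1341.0, with a median of 54.6, against medians of 105.1 in line 75-IV and 106.3 in wild type. Their median log2 ratio was -0.91 for ppi1 over wild type and -0.93 for ppi1 over line 75-IV, where all 1796 measured genes had medians of 0.10 and 0.06. At least 1.5-fold below wild type alone were 8.96% of all measured genes, and 10.4% were as far below line 75-IV. A larger distance was less common: 21 members lay at least 2-fold below both arrays and 4 at least 3-fold. In 19 of the 75 members the ppi1 signal was under 29.8, less than 2 times the floor, where small absolute differences make large ratios. Of all 1796 measured genes, 288 had a ppi1 signal under 29.8. With the measured genes split into 4 parts of 448 to 450 genes by wild-type signal, the dimmest held 2 members and the others, from dim to bright, 19, 31 and 23. A gene whose wild-type signal lies within 1.5-fold of the floor could not become a member.

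**Figure D1:**
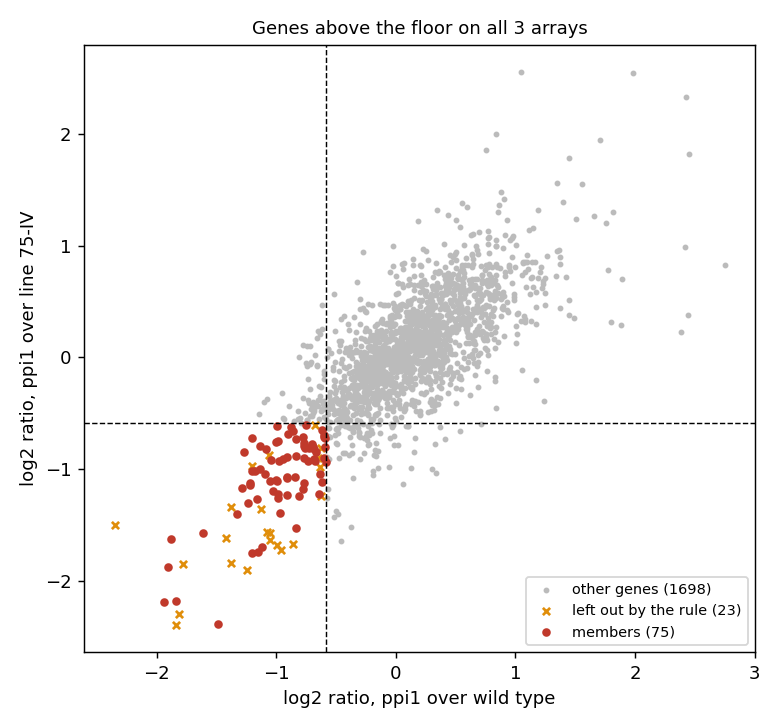
Log2 ratio of ppi1 over line 75-IV (vertical) against ppi1 over wild type (horizontal) for the 1796 genes above the floor on all 3 arrays; dashed lines mark 1.5-fold lower. The 75 members (red) and the 23 genes left out by the rule (crosses) fill the lower left corner by construction, and both axes share the ppi1 array.

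**Figure D2:**
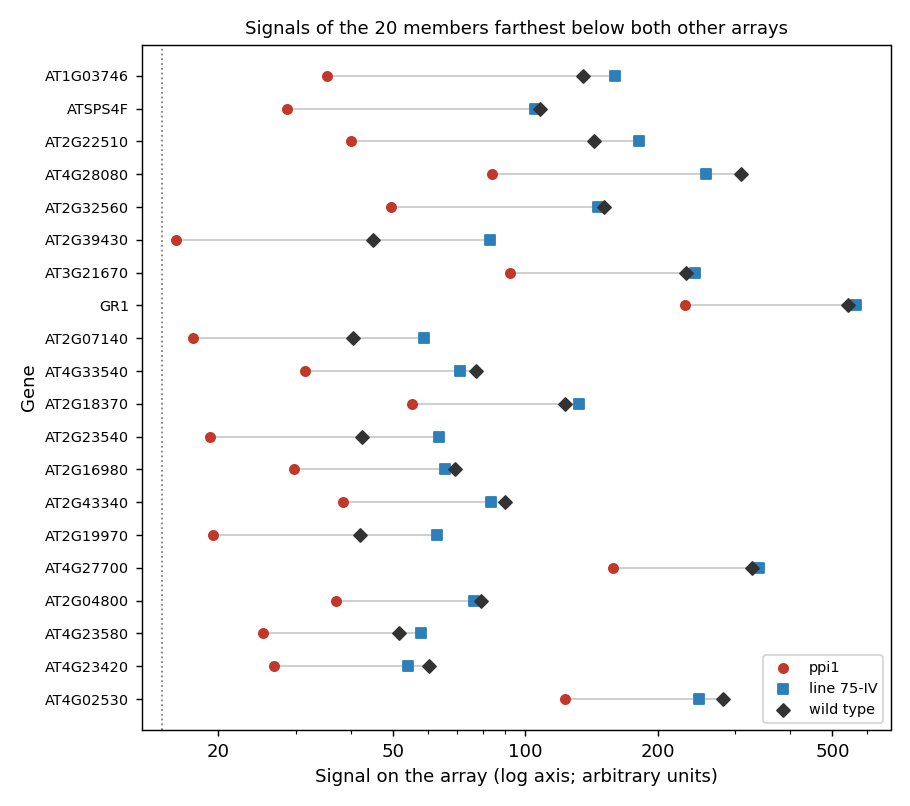
Signals on the ppi1 (circle), line 75-IV (square) and wild-type (diamond) arrays, on a log axis, for the 20 members whose smaller distance to the other arrays was largest; the dotted line is the floor of 14.9. In each of them the line 75-IV and wild-type signals lie closer to each other than the wild-type signal lies to ppi1.

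The cell wall and cell surface group held 10 members. AT2G22510, of the hydroxyproline-rich glycoprotein family of wall proteins, had 40.0 in ppi1, 181.2 in line 75-IV and 143.2 in wild type. This is 4.53-fold below line 75-IV and 3.58-fold below wild type. The dirigent protein gene AT2G39430 had 16.0 in ppi1, just above the floor, 83.2 in line 75-IV and 44.9 in wild type. Dirigent proteins steer the coupling of phenolic building blocks of lignans and lignin. A second dirigent gene, AT4G11190, had 35.0 in ppi1, 91.9 in line 75-IV and 68.6 in wild type, 2.63-fold and 1.96-fold lower in ppi1.

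Lipid-binding and lipid-cleaving surface proteins were part of the same group. AT2G18370, a lipid transfer protein, had 55.2 in ppi1, 132.3 in line 75-IV and 123.2 in wild type. AT5G46900, a related small cysteine-rich protein, had 230.5 in ppi1, 492.8 in line 75-IV and 462.9 in wild type. In both genes the line 75-IV and wild-type signals lay close together and ppi1 apart from them. AT2G44300, of the same superfamily, had 18.8 in ppi1, near the floor, 54.0 in line 75-IV and 33.5 in wild type. The GDSL lipase gene AT2G23540 had 19.1 in ppi1, 63.6 in line 75-IV and 42.5 in wild type. These last genes therefore ran in the order ppi1, wild type, line 75-IV, with no pair close.

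Enzymes that remodel wall polysaccharides were represented by XTH32, a xyloglucan endotransglucosylase, with 89.9 in ppi1, 167.7 in line 75-IV and 152.8 in wild type. TBL26, of the family of wall polysaccharide O-acetyltransferases, had 21.9 in ppi1, 47.6 in line 75-IV and 37.3 in wild type. AT4G34600 encodes CIF2, a signal peptide that guides formation of the Casparian strip in the root endodermis. Its log2 ratios were -0.90 for ppi1 over line 75-IV and -0.69 for ppi1 over wild type.

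Secreted proteins of types known from defence made up a group of 4. LCR68, of the plant defensin family, had 577.8 in ppi1, 1342.2 in line 75-IV and 1142.4 in wild type, 2.32-fold and 1.98-fold lower in ppi1. AT2G19970, of the CAP superfamily that includes the pathogenesis marker PR1, had 19.4 in ppi1, 62.9 in line 75-IV and 42.1 in wild type. The chitinase gene CHI had 24.2 in ppi1, 42.7 in line 75-IV and 39.0 in wild type. AT2G43610, another chitinase gene, had 68.2 in ppi1, 158.9 in line 75-IV and 106.3 in wild type.

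CHI and AT2G43610 belong to a run of 6 consecutive chitinase-family genes, and this run did not behave alike. AT2G43590, between them, had 115.2 in ppi1, 310.1 in line 75-IV and 165.1 in wild type, and missed the rule only against wild type (log2 ratio -0.52). AT2G43620, at the end of the run, had the opposite order, with 452.3 in ppi1, 77.5 in line 75-IV and 114.4 in wild type. Its log2 ratio was 2.55 over line 75-IV and 1.98 over wild type. The remaining genes of the run, AT2G43580 and AT2G43600, were below the floor on every array. Whether probes of such close relatives share signal was not tested.

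**Figure D3:**
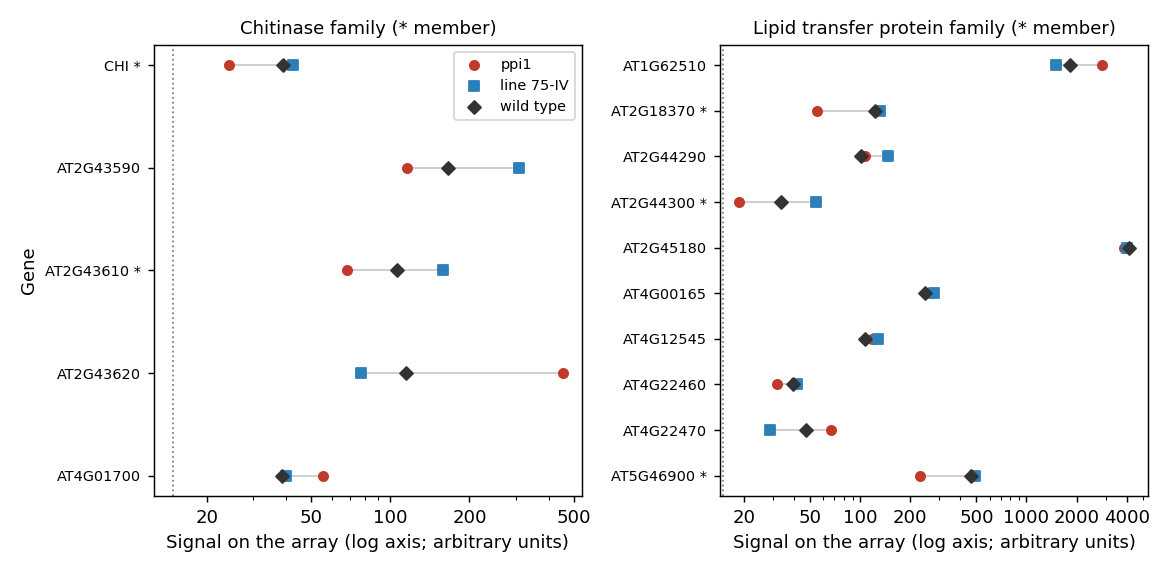
Signals in ppi1 (circle), line 75-IV (square) and wild type (diamond), on log axes, of the measured genes of the chitinase family (left, 5 genes) and the lipid transfer protein family (right, 10 genes); asterisks mark members and the dotted line the floor. AT2G43620 has its highest signal in ppi1 (452.3), opposite to its neighbours, and AT1G62510 likewise (2832.2).

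Relatives of other members also differed among themselves. These families, and those named below, were drawn up with the members' values known, and each held a member. Counts of members in them are therefore a description, where 98 of 1796 measured genes (5.46%) met the fold rule. Of 10 measured lipid transfer protein genes 3 were members, and 5 were lowest and 2 highest in ppi1. Under spike-in scaling 3 of the 10 were lowest and 7 highest. All measured genes then had medians of 0.59 for ppi1 over wild type and 0.72 for ppi1 over line 75-IV. AT1G62510, of the lipid transfer protein genes, was higher in ppi1, with 2832.2 against 1500.1 in line 75-IV and 1817.5 in wild type. AT2G44290, next to the member AT2G44300, had 107.4 in ppi1, 148.1 in line 75-IV and 101.7 in wild type. Of 4 measured dirigent genes 2 were members, and AT4G11210 had log2 ratios of -0.43 over line 75-IV and -0.90 over wild type. The remaining one, AT1G22900, had 21.9 in ppi1, 15.7 in line 75-IV and 20.2 in wild type, log2 ratios of 0.48 and 0.12. Of 5 measured GDSL lipase genes 1 was a member, while AT2G38180 had 36.2 in ppi1, 20.1 in line 75-IV and 17.1 in wild type. Of 6 measured genes of the TBL family, TBL26 alone was a member.

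Sugar, energy and other metabolism held 9 members. ATSPS4F, a sucrose phosphate synthase that makes the precursor of sucrose in the cytosol, had 28.7 in ppi1, 105.1 in line 75-IV and 107.8 in wild type. It was 3.66-fold below line 75-IV and 3.76-fold below wild type, and those arrays differed from each other by a log2 ratio of only -0.04. AT1G62660, a vacuolar invertase that splits sucrose, had 83.5 in ppi1, 145.7 in line 75-IV and 135.2 in wild type. The probe sets of both genes carry a suffix for possible cross-hybridisation. In the list of sucrose and starch enzymes, 46 entries long, 4 genes were measured on all arrays. These 2 were the members among them, in a list chosen with earlier results known, where 5.46% of all measured genes met the fold rule. The others were the sucrose phosphatase gene AT2G35840, with log2 ratios of -0.16 over line 75-IV and -0.19 over wild type, and SBE2.2, a starch branching enzyme, with 0.17 and 0.30.

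GR1, the glutathione reductase of cytosol and peroxisomes, had 230.5 in ppi1, 567.3 in line 75-IV and 543.1 in wild type, 2.46-fold and 2.36-fold lower in ppi1. GR, which codes for the reductase of plastids and mitochondria, was below the floor on every array. CYTC-1, the cytochrome c of the mitochondrial electron chain, had 840.6 in ppi1, 1592.7 in line 75-IV and 1397.3 in wild type. The second cytochrome c gene, CYTC-2, did not share this, with 36.2 in ppi1, 40.1 in line 75-IV and 31.4 in wild type. AT5G55070, a subunit of the 2-oxoglutarate dehydrogenase of the citric acid cycle, had log2 ratios of -0.90 over line 75-IV and -0.60 over wild type.

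Enzyme-family genes with a less certain role completed the metabolic group. AT4G33540, of the metallo-beta-lactamase family, had 31.5 in ppi1, 70.8 in line 75-IV and 77.0 in wild type. AT4G23420, of the short-chain dehydrogenase family, had 26.7 in ppi1, 54.1 in line 75-IV and 60.4 in wild type. AT2G36290, an alpha/beta hydrolase, had 63.6 in ppi1, 133.9 in line 75-IV and 119.2 in wild type. All 3 lay between 1.87-fold and 2.44-fold lower in ppi1. AT2G35390, a phosphoribosyl pyrophosphate synthetase of nucleotide synthesis, is an uncertain member. Its probe set with the brightest signals had 170.3 in ppi1, 286.7 in line 75-IV and 341.7 in wild type. A second probe set had 218.7, 247.0 and 247.5 in the same order, and the remaining one, without a suffix, had 120.1, 99.7 and 38.7, which is the opposite direction.

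Membrane transport held 4 members. AT3G21670 (NPF6.4), of the nitrate and peptide transporter family, had 92.4 in ppi1, 243.4 in line 75-IV and 232.0 in wild type, 2.63-fold and 2.51-fold lower in ppi1. A second gene of that family, AT2G40460, had 34.8 in ppi1, 82.9 in line 75-IV and 69.0 in wild type. Of the 3 other measured genes of the family, AT2G26690 and AT1G59740 had log2 ratios between -0.25 and 0.22. The third, the glucosinolate transporter GTR1, had 72.2 in ppi1, 102.4 in line 75-IV and 62.6 in wild type. AT2G36630, related to bacterial sulfite exporters, had 93.6 in ppi1, 221.1 in line 75-IV and 164.0 in wild type. AT2G16980, of the major facilitator superfamily, had 29.7 in ppi1, 65.5 in line 75-IV and 69.2 in wild type.

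Plastid proteins, the class that enters through the translocon, made up 7 members. AT4G27700, a rhodanese-like protein of the chloroplast, had 158.1 in ppi1, 339.8 in line 75-IV and 328.0 in wild type. AT4G02530, a protein of the thylakoid lumen, had 122.8 in ppi1, 248.7 in line 75-IV and 281.9 in wild type. AT1G51400, a small protein of photosystem II, had 983.6 in ppi1, 1629.3 in line 75-IV and 1752.4 in wild type. In these 3 genes ppi1 stood at 2.07-fold, 2.03-fold and 1.66-fold below the nearer of the other arrays.

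The other plastid members were THIC, GrxC5, AT4G13050 and AT5G15700. THIC, which makes the pyrimidine part of thiamine, had 122.5 in ppi1, 257.2 in line 75-IV and 230.2 in wild type. GrxC5, a glutaredoxin, had 63.1 in ppi1, 103.7 in line 75-IV and 145.6 in wild type, and was the member with the lowest ratio of line 75-IV over wild type (log2 -0.49). AT4G13050, an acyl carrier protein thioesterase that releases fatty acids, had 42.4 in ppi1, 71.9 in line 75-IV and 72.0 in wild type. Its relative FaTA was below the floor in ppi1 (9.0) and above it in line 75-IV (34.4) and wild type (28.0), so it could not become a member. FATB, another thioesterase, had log2 ratios of -0.25 over line 75-IV and -0.52 over wild type. AT5G15700, an RNA polymerase shared by mitochondria and plastids, had log2 ratios of -0.85 over line 75-IV and -0.67 over wild type.

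Protein turnover held 5 members. AT2G32560, an F-box gene whose class selects proteins for degradation, had 49.4 in ppi1, 146.2 in line 75-IV and 150.9 in wild type. Its other probe set showed a smaller difference, with 61.4 in ppi1, 118.5 in line 75-IV and 97.9 in wild type. The F-box genes AT2G07140 and AT4G23580 had 17.5 and 25.3 in ppi1, both under 2 times the floor. AT2G07140 had 58.6 in line 75-IV and 40.4 in wild type. AT4G23580 had 57.9 in line 75-IV and 51.5 in wild type. SCPL49, a serine carboxypeptidase-like protein, had 67.0 in ppi1, 140.7 in line 75-IV and 120.0 in wild type.

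ATG8F, which coats autophagosome membranes, had 313.2 in ppi1, 674.6 in line 75-IV and 623.2 in wild type. It was the single member among 5 measured ATG8 genes. ATG8E had 1707.3 in ppi1, 857.6 in line 75-IV and 1732.6 in wild type, so there line 75-IV was the array apart. ATG8B, ATG8C and ATG8D had log2 ratios from -0.38 to -0.16 over line 75-IV and from -0.65 to 0.16 over wild type.

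Signalling held 5 members. Calcium-binding proteins with EF hands were AT4G27280, with 163.5 in ppi1, 284.7 in line 75-IV and 265.4 in wild type, and AT2G41090. The second had 137.3 in ppi1, 296.6 in line 75-IV and 210.4 in wild type. AT1G10900, of the phosphatidylinositol phosphate kinases that make membrane signal lipids, had 67.8 in ppi1, 109.0 in line 75-IV and 126.6 in wild type. Its 2 other probe sets differed more, with 39.0 and 18.9 in ppi1, 92.5 and 69.9 in line 75-IV and 80.1 and 63.8 in wild type. All 3 probe sets carry a suffix letter (r or s), as do those of AT1G65190 (i), AT2G41090 (s) and AT3G61160 (s). AT1G65190, a protein kinase, had 24.1 in ppi1, 45.5 in line 75-IV and 49.8 in wild type, and the shaggy-like kinase AT3G61160 had log2 ratios of -0.61 over line 75-IV and -0.99 over wild type.

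RNA and gene expression held 6 members, led by AT1G03746, annotated as a small nucleolar RNA (snoRNA), a class that guides chemical modification of ribosomal RNA. It had 35.3 in ppi1, 160.3 in line 75-IV and 135.5 in wild type, 4.54-fold and 3.84-fold lower in ppi1, the lowest of all members by the smaller distance. A second snoRNA, AT5G44286, had 166.2 in ppi1, 299.0 in line 75-IV and 400.8 in wild type, while its other probe set was below the floor throughout. The probe sets used for these snoRNAs carry a suffix letter, r for AT1G03746 and i for AT5G44286. Of 6 snoRNAs measured on all arrays these were the members, and AT2G35744, AT3G24615 and AT3G24612 had log2 ratios between -0.19 and 0.16. AT3G47342 had 47.8 in ppi1, 61.6 in line 75-IV and 81.7 in wild type. Labelling started from an oligo-dT primer, per the labels, so what these probe sets measure of RNAs that normally lack a poly(A) tail was not tested.

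AT2G04520, the translation initiation factor eIF1A, had 460.9 in ppi1, 808.9 in line 75-IV and 778.3 in wild type. AT2G46230, a PIN domain protein, had 43.1 in ppi1, 74.6 in line 75-IV and 73.3 in wild type. AT2G37120, an S1FA-like DNA-binding protein, had 97.6 in ppi1, 157.8 in line 75-IV and 148.2 in wild type. In all 3 genes line 75-IV and wild type lay close together. AT4G02200, of the Di19 zinc finger family, had 56.5 in ppi1, 92.7 in line 75-IV and 85.7 in wild type, but its other probe set, which carries no suffix, misses the rule with 60.1, 76.7 and 75.3 in that order.

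Of the other known families, AT4G28080 stood farthest apart. It encodes a tetratricopeptide repeat protein of the family of REC1, a protein known to set the share of the cell taken up by chloroplasts. Its signals were 84.0 in ppi1, 258.1 in line 75-IV and 309.0 in wild type, 3.07-fold and 3.68-fold lower in ppi1. AT1G15290, of the same family, had 62.0 in ppi1, 66.3 in line 75-IV and 59.0 in wild type. AT1G67360, a lipid droplet-associated protein, had 22.6 in ppi1, 51.2 in line 75-IV and 38.7 in wild type. AT2G46100, an NTF2-like protein, had 52.7 in ppi1, 92.8 in line 75-IV and 112.1 in wild type.

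AT4G10000, of the thioredoxin family, had 17.4 in ppi1, near the floor, 33.0 in line 75-IV and 34.2 in wild type. AT4G33400, related to the yeast protein Vid27, had 27.3 in ppi1, 52.0 in line 75-IV and 43.7 in wild type. The TLC domain gene AT4G10360 and the universal stress protein gene AT2G47710 had log2 ratios of -1.04 and -0.65 over line 75-IV and of -0.64 and -0.61 over wild type.

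For 18 members no role is given here. AT2G25510 had the highest signals of all members, with 1341.0 in ppi1, 2678.7 in line 75-IV and 2940.3 in wild type. AT2G43340 had 38.5 in ppi1, 83.6 in line 75-IV and 89.9 in wild type, and AT2G04800 had 37.0, 76.2 and 79.1 in the same order. AT2G24420 had 238.9 in ppi1, 441.6 in line 75-IV and 449.5 in wild type. In these 4 genes line 75-IV lay slightly below wild type. AT4G09890 had 55.0 in ppi1, 129.1 in line 75-IV and 103.3 in wild type, and AT4G14020 had 66.9, 125.2 and 128.8 in that order. The other 12, which are AT1G62250, AT1G65230, AT1G79510, AT2G25720, AT2G35170, AT2G39500, AT2G42190, AT2G43235, AT2G44230, AT2G45520, AT4G24130 and AT4G27380, had log2 ratios from -0.93 to -0.60 over line 75-IV and from -1.14 to -0.59 over wild type, at ppi1 signals of 16.4 to 95.6.

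The ratio of line 75-IV over wild type was not independent of the rule, which used both signals. A gene lower in line 75-IV than in wild type, or the reverse, had to lie farther below the higher of them to become a member, and dim genes were nearly all left out. The following shares are therefore a description and show no trait of the members. A log2 ratio between -0.32 and 0.32 was found in 57 of 75 members (76.0%), against 66.3% of all measured genes. Line 75-IV was the higher in 47 members and the lower in 28, with a median log2 ratio of 0.09, where all measured genes had 0.05 and 55.1% were higher in line 75-IV. This direction turned under spike-in scaling, with 24 of 75 higher in line 75-IV and a median of -0.087. All measured genes turned likewise, with 614 of 1796 higher in line 75-IV and a median of -0.127. At least 1.5-fold above wild type were 2 members, AT2G39430 (1.85-fold) and AT2G44300 (1.61-fold), which is 2.67% of the members against 7.8% of all measured genes. No member lay at least 1.5-fold below wild type in line 75-IV, against 4.01% of all measured genes, and the rule works against such members. No test of these shares could be made on single arrays.

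By functional group, the same ratio is given as counts, and differences between groups were not tested. Of all 1796 measured genes, 989 were higher in line 75-IV than in wild type, and 614 under spike-in scaling. That count was 881 after median centring, 868 after quantile normalization and 908 after loess. In the cell wall and cell surface group 10 of 10 members were higher in line 75-IV than in wild type, with a median log2 ratio of 0.35 and a range of 0.09 to 0.89, though 7 of 10 under spike-in scaling. In the secreted defence-type group 4 of 4 were higher, with a median of 0.41, and 3 of 4 under spike-in scaling. Plastid proteins had a median of -0.002, with 3 of 7 higher and 0 of 7 under spike-in scaling, and signalling members had -0.13, with 2 of 5 higher. RNA and gene expression had 5 of 6 higher, protein turnover 4 of 5 and membrane transport 3 of 4. Sugar, energy and other metabolism had 5 of 9, other known families 4 of 7 and members with no role 7 of 18. Under spike-in scaling these counts were 1 of 6, 2 of 5, 2 of 4, 2 of 9, 3 of 7 and 3 of 18. Signalling then had 1 of 5. Median centring gave 3 of 6 in RNA and gene expression. Of the 23 genes left out by the rule, 18 were higher in line 75-IV, with a median of 0.34. Median centring, quantile normalization and loess left 10 of 10 and 4 of 4 higher in the first 2 groups.

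**Figure D4:**
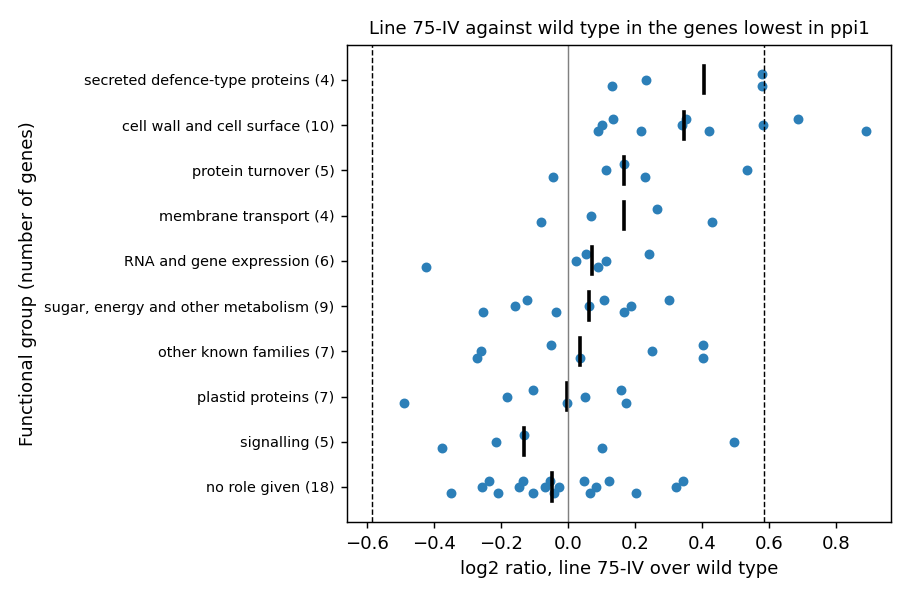
Log2 ratio of line 75-IV over wild type for each of the 75 members (points) by functional group, with the number of genes in brackets and the group median as a bar; dashed lines mark 1.5-fold. The 10 cell wall and cell surface genes and the 4 secreted defence-type genes all lie above 0, while the 7 plastid genes lie on both sides, with a median of -0.002. The median of all 1796 measured genes, not drawn, was 0.05.

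Genes listed for other pathways were thinly covered. Of 255 entries in 14 lists, 17 genes were measured on all arrays, and 4 of these were members: ATSPS4F, AT1G62660, XTH32 and AT2G39430. Over all measured genes, 98 of 1796 (5.46%) met the fold rule. The lists were chosen with earlier results of these data known, so the count of 4 is a description. A second xyloglucan enzyme, EXGT-A3 (XTH27), had 730.4 in ppi1, 751.9 in line 75-IV and 1191.5 in wild type, so line 75-IV lay with ppi1. The cellulose-related gene COB, the sulfite reductase gene SIR and 4 of 5 tubulin and actin genes had log2 ratios between -0.46 and 0.45 in both comparisons. TUB6, a beta tubulin, had 475.6 in ppi1, 331.2 in line 75-IV and 259.3 in wild type. Of the auxin list, IAA20 had log2 ratios of -0.25 over line 75-IV and 0.36 over wild type, and WES1, which conjugates auxin, had 0.81 and 0.21.

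At the edge of the rule, the members AT2G44230, AT4G24130 and AT4G27380 lay 1.512-fold, 1.510-fold and 1.503-fold below the nearer array. Just outside it were AT2G46140, MTP11, a manganese transporter, and AT1G70000, at 1.498-fold, 1.495-fold and 1.493-fold. Of 302 pairs of adjacent protein-coding genes with both measured, 2 pairs met the rule in both genes. The pair that held a member was AT2G35390 and the peroxidase gene AT2G35380. Of the members' probe sets, 62 of 75 (82.7%) carried no suffix letter of any kind, against 85.6% of all measured genes. The 13 others carried s, i, r or g. The letter was s in ATSPS4F, AT2G16980, AT1G62660, AT2G41090, AT3G61160 and AT4G24130. It was i in AT4G23420, AT1G65190, AT5G44286 and AT2G35390, r in AT1G03746 and AT1G10900, and g in AT4G02200.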

How the data were processed

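The authors deposited 1 signal per probe set and array, an intensity on a linear scale that is never negative; the software that made it was not given in the sources used here. Per the labels, biotin-labelled cRNA was made from total RNA with an oligo-dT primer. The 2% trimmed means of the arrays were 100.2 each, so the deposited intensity values were used unchanged, on the log2 scale, and a difference in total mRNA cannot appear. Of 8297 probe sets, 3794 had 1 gene in the platform annotation. These gave 3602 genes, 3592 of which were found in the RefSeq gene table (assembly TAIR10.1, used for names and gene order only). The probe set with the highest mean log2 signal represented a gene.

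A gene was measured if it lay above 14.9, the 40th percentile, on all 3 arrays. Log2 ratios and counts past 1.5-fold were computed with no test, as each group has 1 array. The members, groups and lists were chosen with earlier results of these data known, and the families after the members' values were seen. Full signals are given for the 20 members with the largest smaller distance and up to 4 further ones per group; CIF2, AT5G55070 and others are given by ratios. XTH32 is named through its list, as are up to 4 genes of each list. Python 3.11.15, pandas and NumPy were used, and the rule was tested on simulated data with genes lowered 3-fold. That setting does not bear on members near the 1.5-fold threshold. Promoter and protein sequences were not used here.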

Additional observations from a re-analysis of the deposited data

How the results depend on the processing

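All 75 members met the rule after median centring, quantile normalization and loess on level (span 0.4). Genes meeting it before exclusions rose from 98 to 112, 130 and 127 in that order. Median centring lowered every log2 ratio of ppi1, so no member could fail under it. Scaling to the 9 hybridisation controls, which raised every log2 ratio of ppi1 by 0.48 against wild type and by 0.66 against line 75-IV, left 12 members, and 22 genes before exclusions against 98. Those 12 were AT1G03746, ATSPS4F, AT2G22510, AT4G28080, AT2G32560, AT2G39430, AT3G21670, GR1, AT2G07140, AT2G18370, AT2G23540 and AT2G19970. That scaling turned the members' median of line 75-IV over wild type to -0.087, where all measured genes had -0.127. It left 2 genes of the fixed lists against 4. The same scaling moved the median of all genes to 0.59 for ppi1 over wild type and 0.72 for ppi1 over line 75-IV. It also put 5 ratios of ppi1 over line 75-IV above 0, those of AT2G47710 (0.0122), AT1G79510 (0.0403), AT2G45520 (0.0043), AT2G25720 (0.058) and AT3G61160 (0.047). A floor at the 60th percentile (39.9) left 45 members, 63 genes before exclusions and 2 list genes, because fewer genes were measured, and one at the 20th percentile (4.2) gave 156 genes before exclusions. A 2-fold threshold gave 21 members, 33 genes and 2 list genes, and a threshold at a log2 ratio of 0.32 gave 244 genes. Probe sets without a suffix gave 62 members and 2 list genes, with AT2G35390 at 1.63 over wild type and 0.27 over line 75-IV. The median over probe sets gave 72 members, and 53 had signals of at least 4 times the floor in line 75-IV and wild type. No paired analysis was possible because each group has 1 array. No replicate could be left out.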
